A study of Rattus norvegicus with 2 samples.

Results

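Circular RNAs (circRNAs) of 5 signalling genes are described here: the protein kinase C gene PRKCE, the protein kinase D gene PRKD1 and the cyclic nucleotide phosphodiesterase genes PDE1C, PDE4B and PDE8A. A circRNA is a closed loop made when a downstream splice site is joined to an upstream one, and it is recognised by reads across that back-splice junction. Members were all rows of the deposited circRNA table that named 1 of these genes and no other name, which gave 22 junctions of the 17260 considered. PDE8A had 8 of them, PRKCE 6, PDE1C 6, PRKD1 1 and PDE4B 1. The table came from a rat model of bone cancer pain with 1 library for each of 2 groups. Per the labels, the bone cancer pain (BCP) group received living Walker256 cells, a rat breast carcinoma line grown as ascites in SD rats, in the marrow cavity of the tibia. The control group received Walker256 cells that had been boiled for 20 minutes and had the same operation. Each group had 3 rats killed on day 21 after surgery, and the labels state neither the strain and age of these rats nor whether their RNA was pooled. RNA of both groups was depleted of ribosomal RNA and digested with RNase R, an enzyme that removes linear RNA.

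Protein kinase C enzymes are serine-threonine kinases switched on at membranes by diacylglycerol, the lipid that phospholipase C releases when many cell surface receptors are engaged. PRKCE encodes the epsilon form, which needs diacylglycerol but not calcium and is known in sensory neurons for sensitising pain fibres. PRKD1 encodes a kinase that also binds diacylglycerol and is itself phosphorylated and activated by protein kinase C. Phosphodiesterases act on the other second messenger branch and end it by hydrolysing cAMP or cGMP. Reads of a circular junction measure neither the linear mRNA nor the protein or activity of these enzymes.

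Junction reads totalled 159941 in the control library and 151685 in the BCP library. With 1 library per group nothing could be tested between conditions. A ratio is therefore BCP over control for that pair of libraries. Its 95% interval is exact if reads are independent, and it covers counting error only. Values are given as reads and as RPM, that is reads scaled to the junction reads of the library, with no term for length. Fewer cells of a type and less circRNA per cell cannot be told apart in such bulk RNA. The labels name the source both as cancer cells and as spinal cord cells. Of 35 marker genes, those of neurons (10), astrocytes (6) and microglia and macrophages (6) had no circRNA listed in either library. Among the 6 oligodendrocyte markers only MBP had one (2 control and 3 BCP reads), and of 7 markers of epithelial and dividing cells TOP2A (60 and 41) and MKI67 (none and 2) had one. A marker mRNA need not give a circRNA, so the source was not settled by these counts. The table placed PRKCE, PRKD1, PDE1C, PDE4B and PDE8A on chromosomes 2, 14, 7, 1 and 15, while the rat genes lie on chromosomes 6, 6, 4, 5 and 1 (RefSeq, assembly GRCr8). The table also carries human circBase identifiers (circBase catalogues published circRNAs), and 538 of its rows lie on chromosomes 21 and 22, while the highest numbered rat autosome is 20. The positions therefore conflict with the rat build rn6, which the submitters' processing notes name. They are printed below as the table gives them, without a build, and the groups are the libraries so labelled. Which species the junction reads came from was not tested, so the values are not shown to be those of rat circRNAs.

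Across the 22 junctions, the 5 genes had 264 reads in the control and 200 in the BCP library, a ratio of 0.80 (interval 0.66 to 0.96). The genes did not move together. The lower sum rests on the PDE4B circRNA, which had the most reads (133 and 60) and was 2.10-fold lower in the BCP library. PDE1C junctions summed to more reads there, with an interval that includes 1 (0.96 to 2.65), and PDE8A junctions to a similar number. The leading PDE8A junction differed between the 2 libraries, but its lead in the control was only 22 against 19 reads. PRKCE and PRKD1 had few reads, mostly on junctions listed in 1 library only.

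**Figure D1:**
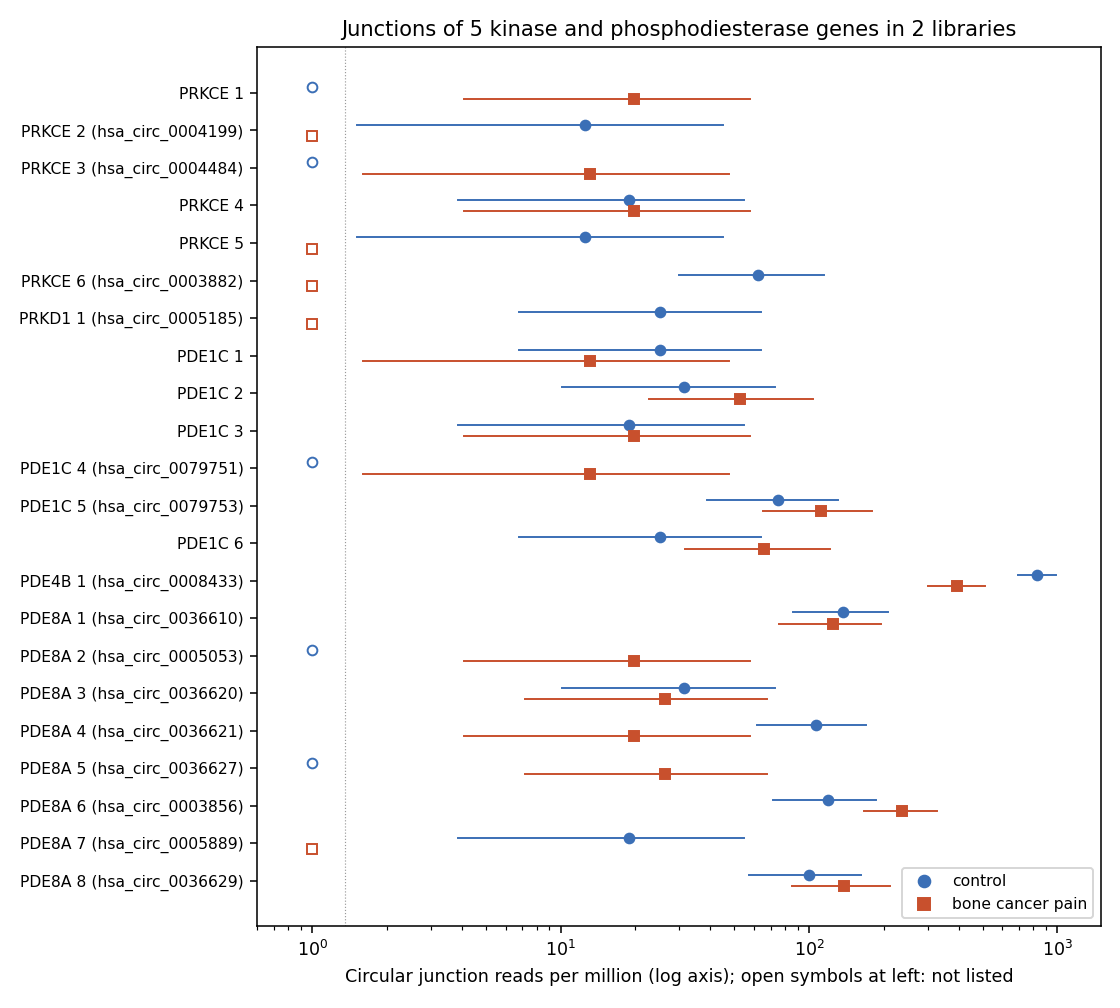
RPM (reads scaled to the junction reads of the library, log axis) of all 22 junctions in the control (circles) and BCP (squares) libraries, with exact 95% counting intervals; junctions are numbered by position within a gene, and open symbols at the left mark junctions that were not listed in that library and have no value on the axis. PDE4B stands highest at 832 and 396 RPM with intervals that do not overlap, nor do those of PDE8A 4 (106 and 19.8 RPM); the other junctions listed in both libraries have overlapping intervals.

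The protein kinase C gene PRKCE had 17 control reads and 8 BCP reads on its 6 junctions, or 106 and 52.7 RPM (ratio 0.50, 0.19 to 1.21). The interval includes 1. The junctions lay in 3 separate stretches of chromosome 2. In the first stretch, 45903223 to 45928630, there were 2 control and 5 BCP reads on 3 junctions, none of them listed in both libraries. One of these ran from 45903223 to 45905055 (none and 3 reads), one from 45903223 to 45928630 (hsa_circ_0004199, 2 and none) and one from 45925084 to 45928630 (hsa_circ_0004484, none and 2). Among the member rows, the long loop of 25408 bp was thus listed only in the control library. The 2 short loops, each using 1 of its ends, were listed only in the BCP library. With 2 or 3 reads each, which is at or just above the lowest listed value of 2 reads, this split was not resolvable at this depth. Nor does it hold beyond the member rows. The junction hsa_circ_0005377, left out because its row also names a small RNA, had 34 control and 19 BCP reads. It shares the higher end of hsa_circ_0004484, and its lower end is 4 bp away.

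The middle PRKCE junction, 46067519 to 46070202, was the only one listed in both libraries, with 3 reads in each (1.05, 0.14 to 7.87). The last stretch held the difference. The junction from 46203568 to 46211819 (hsa_circ_0003882, 8252 bp) had 10 control reads and was not listed in the BCP library. Its neighbour, 46203568 to 46207520, shares the lower end and had 2 and none. Together they made 12 of the 17 control reads (70.6%, 44.0 to 89.7) and none of the 8 listed in the BCP library. No fold is given for junctions absent from a library, since a junction with 1 read may not have been listed. Without hsa_circ_0003882 the PRKCE ratio was 1.21, and on the junction listed in both libraries 1.05, so the lower sum of the member rows rests on hsa_circ_0003882.

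PRKD1, the protein kinase D gene, had a single member junction, hsa_circ_0005185, on chromosome 14 from 30093358 to 30105700 (12343 bp). It had 4 reads in the control (25.0 RPM, 6.81 to 64.0) and was not listed in the BCP library. At 4 reads it was below the 10 reads over both libraries that a call by size required.

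PDE1C encodes a phosphodiesterase that is activated by calcium and calmodulin and hydrolyses both cAMP and cGMP. Its 6 junctions summed to 28 control and 42 BCP reads, or 175 and 277 RPM (1.58, 0.96 to 2.65), with an interval that just includes 1. All 6 shared an end with another PDE1C junction. They formed 2 stretches of chromosome 7 with 26970 bp between them. In the stretch from 31904556 to 31920473, 3 junctions joined different lower ends to position 31920473 and had 16 control and 29 BCP reads (1.91, 1.00 to 3.77). In the stretch from 31815278 to 31877585, 3 junctions had 12 and 13 reads (1.14, 0.48 to 2.74). The 2 intervals overlap, and no interval was computed for the difference between the stretches, so these values do not show one.

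Among the junctions that end at 31920473, that from 31912905 (hsa_circ_0079753, 7569 bp) had the most reads, 12 and 17 (1.49, 0.67 to 3.43). The shortest, from 31917583 (2891 bp, without a circBase identifier), had 4 and 10 (2.64, 0.76 to 11.5), and the longest, from 31904556 (hsa_circ_0079751), had none and 2. In the other stretch, the junction from 31848645 to 31855768 had 5 and 8 reads (1.69, 0.49 to 6.55). The junction from 31848645 to 31877585 had 3 and 3 (1.05, 0.14 to 7.87) and that from 31815278 to 31855768, with 40491 bp the longest of the 22, had 4 and 2 (0.53, 0.048 to 3.68). Within PDE1C the leading junction was the same in both libraries: hsa_circ_0079753 held 42.9% of control reads (24.5 to 62.8) and 40.5% of BCP reads (25.6 to 56.7). Only 2 of the 6 junctions had a circBase identifier, and these held 12 and 19 of the reads.

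PDE4B encodes a phosphodiesterase specific for cAMP that is known for limiting cAMP in inflammatory and immune cells. All of its member reads lay on 1 junction, hsa_circ_0008433, on chromosome 1 from 66378928 to 66384518 (5591 bp). It had 133 reads in the control (832 RPM, 696 to 985) and 60 in the BCP library (396 RPM, 302 to 509). The ratio was 0.48 (0.34 to 0.65), that is 2.10-fold lower (1.54 to 2.90) in the BCP library. With 193 reads over both libraries this was the most abundant of the 22 junctions, and the counting intervals of the 2 levels did not overlap. Among 4985 host genes, 301 had more reads than PDE4B.

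PDE8A encodes a high-affinity phosphodiesterase specific for cAMP. Its sum differed little between the libraries, with 82 control and 90 BCP reads, or 513 and 593 RPM (1.16, 0.85 to 1.58). All 8 junctions had a circBase identifier, and 5 were listed in both libraries. They formed 2 stretches of chromosome 15 with 29732 bp between them. The stretch from 85607601 to 85626875 had 44 and 29 reads (0.69, 0.42 to 1.14), and that from 85656608 to 85669605 had 38 and 61 (1.69, 1.11 to 2.61). The first stretch therefore held 53.7% of the control reads of PDE8A (42.3 to 64.7) and 32.2% of the BCP reads (22.8 to 42.9). Those intervals overlap slightly, but that overlap does not measure the difference, for which no interval was computed.

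In the first stretch the difference lay on 1 junction. The junction from 85619093 to 85626875 (hsa_circ_0036621, 7783 bp) had 17 control and 3 BCP reads (0.19, 0.035 to 0.64), and its share of the gene was 20.7% (12.6 to 31.1) against 3.33% (0.69 to 9.43). The junction from 85619093 to 85620018 (hsa_circ_0036620), which uses the same lower end and with 926 bp is the shortest of the 22, had 5 and 4 reads (0.84, 0.17 to 3.92). The junction from 85607601 to 85626875 (hsa_circ_0005053), which uses the same higher end, had none and 3. The most abundant of the stretch, from 85607601 to 85610435 (hsa_circ_0036610), had 22 and 19 (0.91, 0.47 to 1.76). The low value of hsa_circ_0036621 thus was not seen at the other 2 junctions of the stretch that were listed in both libraries, though the interval of hsa_circ_0036620 is wide.

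In the second stretch, 3 junctions started at 85657104. That to 85658718 (hsa_circ_0003856, 1615 bp) had 19 control and 36 BCP reads (119 and 237 RPM; 2.0, 1.12 to 3.69). The longer one to 85664245 (hsa_circ_0036629) had 16 and 21 (1.38, 0.69 to 2.84), and that to 85661070 (hsa_circ_0005889) had 3 and none. A further junction, from 85656608 to 85669605 (hsa_circ_0036627), had none and 4. The leading PDE8A junction thus differed between the libraries. It was hsa_circ_0036610 in the control (26.8%, 17.6 to 37.8), closely followed by hsa_circ_0003856 (23.2%, 14.6 to 33.8), and it was hsa_circ_0003856 in the BCP library (40%, 29.8 to 50.9). Without hsa_circ_0003856, the PDE8A sum was at 0.90.

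**Figure D2:**
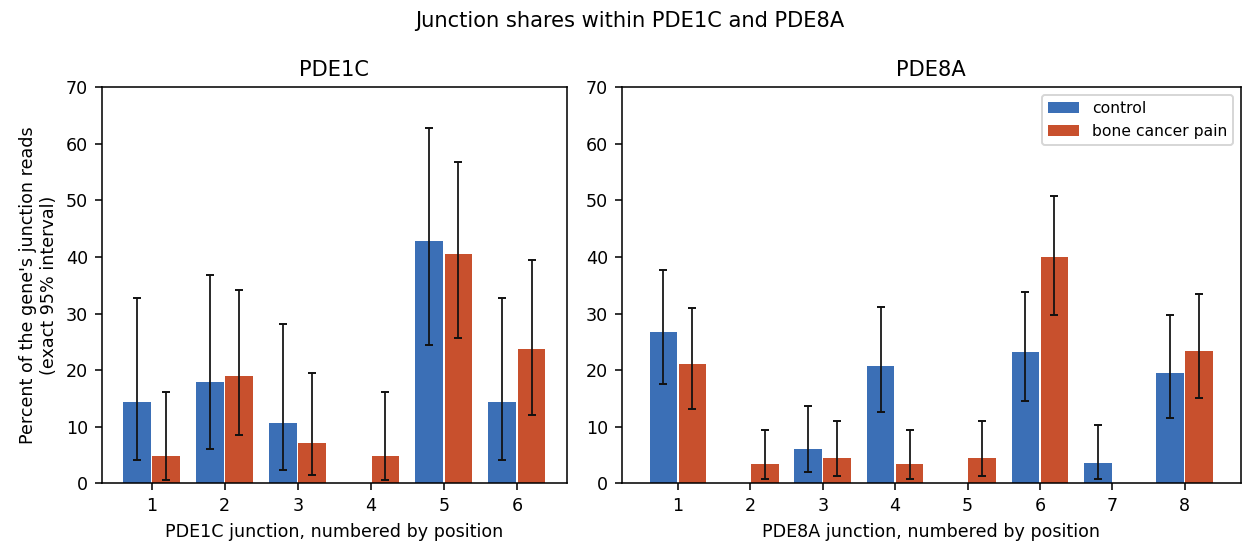
Percent of the junction reads of PDE1C (left) and PDE8A (right) on each junction, numbered by position, in the control and BCP libraries; bars start at 0 and error bars are exact 95% binomial intervals, with none drawn for junctions not listed in a library. PDE8A junction 4 (hsa_circ_0036621) takes 20.7% and 3.33%, PDE8A junction 6 (hsa_circ_0003856) 23.2% and 40%, and PDE1C junction 5 (hsa_circ_0079753) 42.9% and 40.5%.

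**Figure D3:**
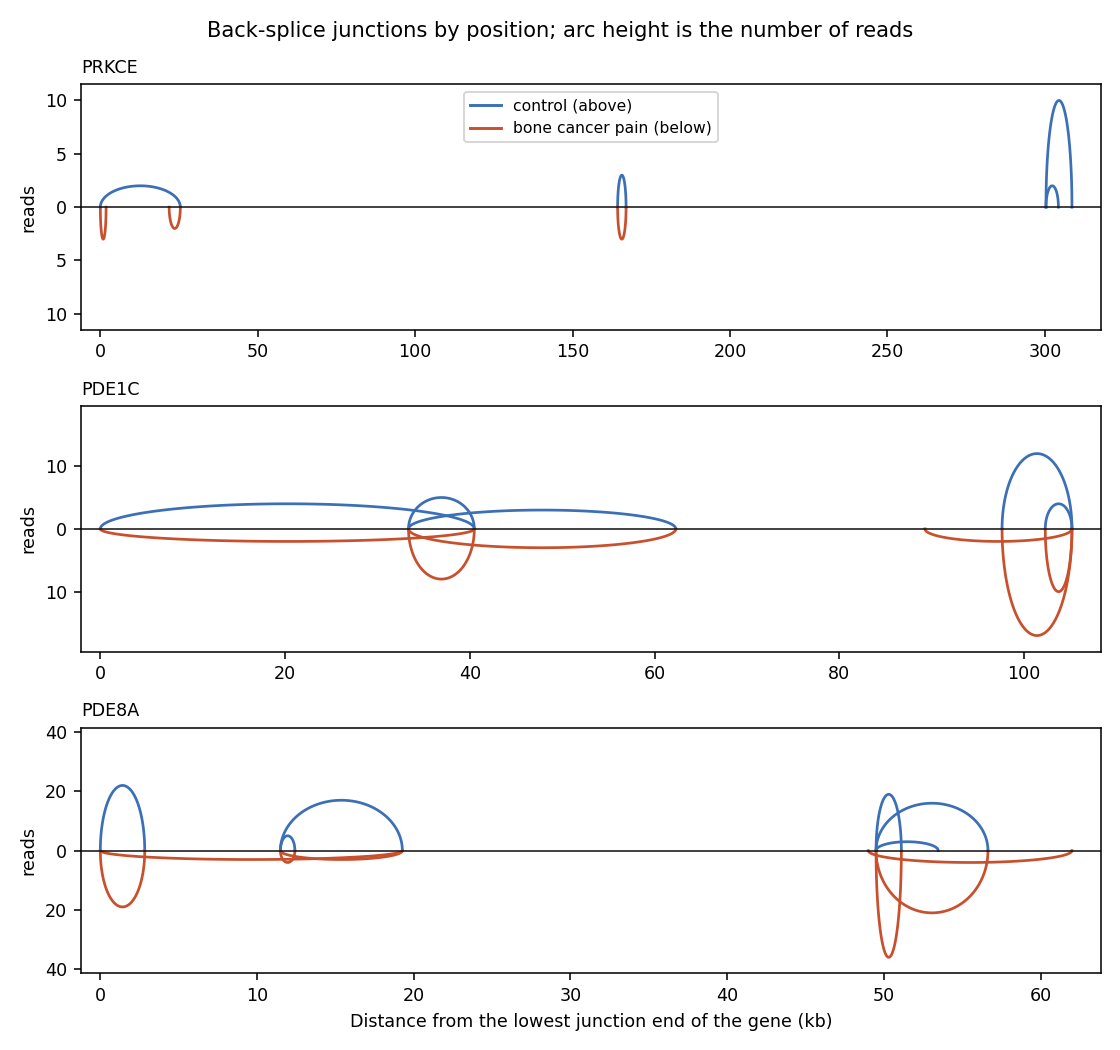
Back-splice junctions of PRKCE, PDE1C and PDE8A drawn as arcs over the distance in kb from the lowest junction end of each gene; arc height is the number of reads, with the control above and the BCP library below the line. The tall PRKCE arc at the right (10 control reads) has no counterpart below, PDE1C arcs meet at a common end on the right, and the PDE8A arcs of the right-hand stretch reach 36 reads in the BCP library against 19 in the control.

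To place the change of junction use, the shares of each host gene's junctions were compared between the libraries as the summed absolute difference divided by 2, over the 741 host genes with 5 or more junctions and 20 or more reads in each library. PDE8A moved by 28.4 percentage points and PDE1C by 15.5. The median of all these genes was 25.6 points (quartiles 17.5 and 35.5). A larger value was found for 41.0% of the genes beside PDE8A and for 80.6% beside PDE1C. The value also rises with counting error, which is larger in genes with few reads. These ranks were not matched for reads or for number of junctions, so they do not show whether either shift is usual for its depth.

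The members were next set against all features of the table by a call of size: a ratio of at least 2 or at most 0.5 with 0.5 reads added to each library, and 10 or more reads over both. Of the 22 member junctions, 9 had 10 or more reads, and of these 3 were lower in the BCP library, 1 was higher and 5 were between. The lower ones were PDE4B hsa_circ_0008433, PDE8A hsa_circ_0036621 and PRKCE hsa_circ_0003882. The last had 10 control reads and none listed in the BCP library. A junction that reaches the minimum through 1 library alone is always called, so its call carries no further information. The higher one was the PDE1C junction from 31917583 to 31920473, whose interval includes 1. Among all 5415 junctions with 10 or more reads, 17% were lower and 17.3% higher, so 34.3% were called in either direction. PDE8A hsa_circ_0003856 lay just inside the limit. With 4 of 9 called, the members' share rests on too few junctions to be set apart from that background.

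Of the 5 host genes, 4 had 10 or more summed reads; PDE4B was lower, and PRKCE, PDE1C and PDE8A were between. Among all 3032 such host genes, 14.1% were lower and 13.3% higher. The log2 ratio of PDE4B was -1.07, and 384 of the 3032 host genes (12.7%) had a lower one. That of PRKCE was -0.97 (446 lower, 14.7%), that of PDE8A 0.21 (1859 lower, 61.3%) and that of PDE1C 0.65 (2390 lower, 78.8%). The median of all was -0.03. These ranks were not matched for depth: the 3032 host genes had a median of 38 reads, against 193 for PDE4B. Genes with few reads reach extreme ratios more easily, so the ranks do not place PDE4B among genes of its own depth. Of the 22 member junctions, 12 (54.5%) were listed in both libraries, against 43.9% of all 15090 junctions with 1 host gene. In total 18 (81.8%) shared an end with another junction of the same gene, against 61.7%, and 15 (68.2%) had a circBase identifier, against 58.6%. Their median span was 7133 bp and that of all 5806 bp. A gene with more junctions has more chances of a shared end. PDE8A, PRKCE and PDE1C had 8, 6 and 6 junctions, against a median of 3 in host genes with 10 or more reads. The shares were not matched for that number, so they do not mark a trait of the members.

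**Figure D4:**
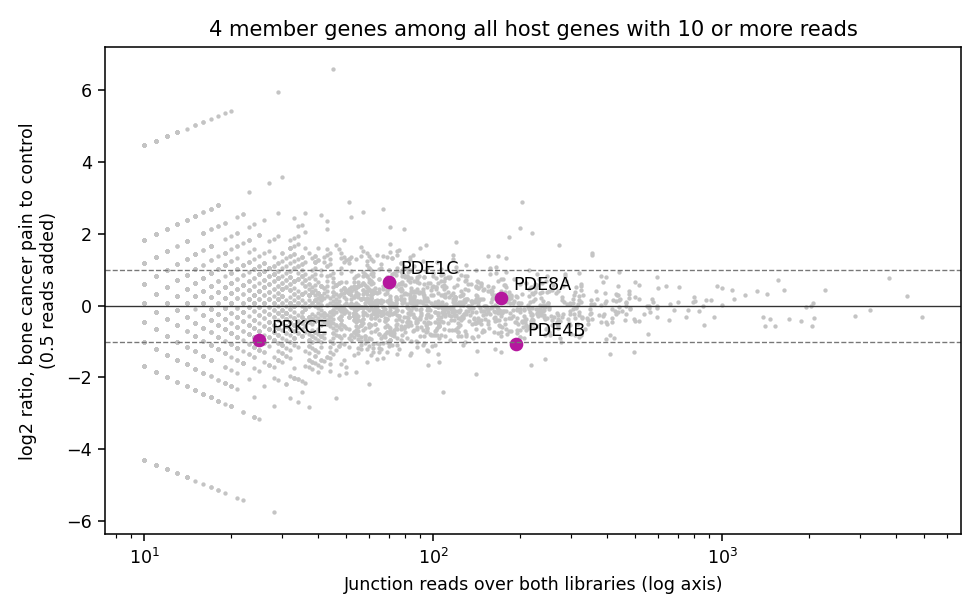
Log2 ratio of BCP to control (0.5 reads added) against junction reads over both libraries (log axis) for the 3032 host genes with 10 or more reads (grey) and 4 of the 5 genes described (purple); PRKD1 had 4 reads and is not drawn, and dashed lines mark 2-fold. PDE4B (193 reads) lies just beyond the lower line at -1.07 and PRKCE (25 reads) just inside it at -0.97. The grey genes have a median of 38 reads.

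A further 10 rows named a member gene together with small RNA names (small nucleolar RNAs and the like), and were left out by the rule that chose the members. All 12 other names in them were small RNA names. For the kinases these rows hold most of the reads. The PRKCE junction from 45925080 to 45928630 (hsa_circ_0005377) had 34 control and 19 BCP reads (0.59, 0.32 to 1.06), more than all 6 PRKCE members together. It shares its higher end with the member hsa_circ_0004484, and its lower end is 4 bp away. Next were PRKCE junctions from 46067519 to 46087337 (hsa_circ_0008559, 5 and none) and from 46062919 to 46070202 (4 and none). The other 3 PRKCE rows had 2 reads each, 2 of them in the control and 1 in the BCP library. For PRKD1 the leading row ran from 30193676 to 30194880 and had 10 and 4 reads (0.42, 0.097 to 1.46), and those from 30340955 to 30387494 and from 30132905 to 30182321 had 4 and 3 control reads with none listed in the BCP library. For PDE4B 1 row, from 66376688 to 66384518, had 2 reads in each library.

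With these rows added, PRKCE had 64 and 29 reads (0.48, 0.30 to 0.75) and PRKD1 21 and 4 (0.20, 0.050 to 0.60). Both then passed the call as lower, so that 3 of the 5 host genes were lower, beside 13.9% of 3112 host genes summed in the same way. These sums take a junction that was not listed as having no reads, although one with 1 read may not have been listed. The only PRKD1 junction listed in both libraries had 10 and 4 reads (0.42, 0.097 to 1.46), with an interval that includes 1. PDE4B was at 0.48 (0.35 to 0.66), and PDE1C and PDE8A had no such rows. PRKCE was lower in either count, but its interval included 1 for the member rows alone and excluded 1 with the added rows. The PRKCE junctions listed in both libraries were hsa_circ_0005377 (0.59, 0.32 to 1.06) and the middle member junction (1.05, 0.14 to 7.87). Each of those intervals includes 1, and the other PRKCE reads lay on junctions listed in 1 library only.

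**Figure D5:**
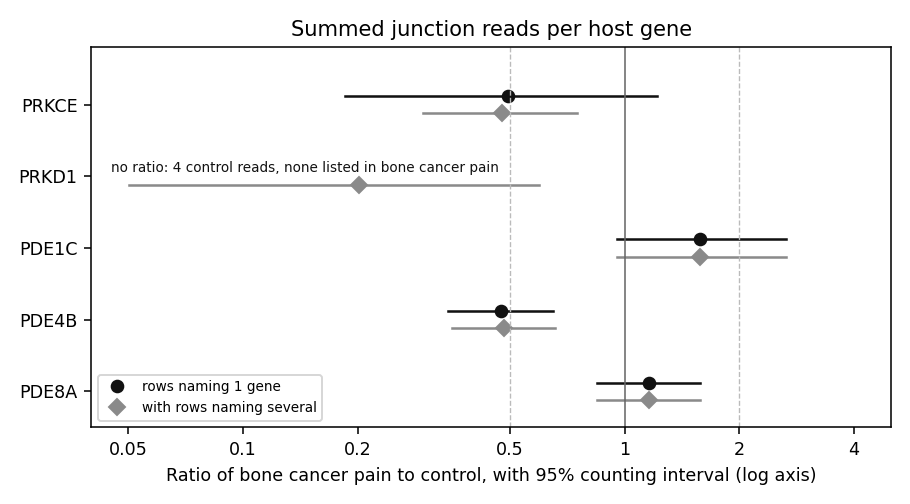
Ratio of BCP to control of the summed junction reads of each gene (log axis) with exact 95% counting intervals, for rows naming 1 gene (black circles) and with rows that also name small RNAs (grey diamonds); dashed lines mark 0.5 and 2. PRKD1 has a ratio (0.20) only with the added rows. The PRKCE interval runs from 0.19 to 1.21 without them and from 0.30 to 0.75 with them, and the other 3 genes hardly move. Junctions not listed in a library count as no reads in these sums.

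The neighbouring genes of both pathways were taken from 6 lists of 115 genes, of which 47 had a circRNA and 28 had 10 or more reads. Of those 28, 4 were higher, 3 were lower and 21 lay between. Their median log2 ratio was 0.05 against -0.03 for all host genes. These lists include the members, and without them 4 of 24 were higher and 2 lower. The counts are near the background shares above.

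Among 12 protein kinase C and D genes, 7 had a circRNA, 5 had 10 or more reads and 1 was lower. That was PRKCA, which encodes the calcium-dependent alpha form (40 and 15 reads; 0.40, 0.20 to 0.73). With rows that also name small RNAs, PRKCA had 191 and 166 (0.92, 0.74 to 1.13) and was no longer called. PRKD3, a relative of PRKD1, had 63 and 61 (1.02, 0.71 to 1.48), all on 1 junction. PRKCI, an atypical form that does not need diacylglycerol, had 23 and 29 (1.33, 0.74 to 2.41).

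Among 24 cyclic nucleotide phosphodiesterase genes, 9 had a circRNA and 6 had 10 or more reads, of which PDE4B was lower and PDE4D higher. PDE4D is another cAMP-specific relative of PDE4B, and its 2 and 8 reads (4.22, 0.84 to 40.8) leave an interval that includes 1. PDE4B and PDE8A had the most reads of the list, followed by PDE1C and PDE10A (33 and 30; 0.96, 0.56 to 1.62). Among 18 cyclase genes, which make cAMP or cGMP, 2 had a circRNA: ADCY7 (21 and 28; 1.41, 0.77 to 2.60) and ADCY9 (10 and 6; 0.63, 0.19 to 1.92).

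Of 23 genes for cAMP and cGMP effectors and anchors, 11 had a circRNA and 7 had 10 or more reads. Higher were the protein kinase A anchor AKAP7 (9 and 27; 3.16, 1.44 to 7.65) and CREB1, the transcription factor phosphorylated by protein kinase A (none listed in the control and 14 reads). Lower was ATF1, a relative of CREB1, with 13 control reads and none listed in the BCP library. The CREB1 and ATF1 reads each lay on 3 junctions. Each of these 2 genes reached the minimum through 1 library alone, so its call was fixed by that minimum. AKAP10 had the most reads (62 and 55; 0.94, 0.64 to 1.37), and AKAP13 and the regulatory subunit PRKAR1B had the same reads (29 and 24; 0.87, 0.49 to 1.55).

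Of 22 genes for phospholipase C and diacylglycerol kinases, which make and remove diacylglycerol, 11 had a circRNA and 5 had 10 or more reads. PLCE1 was higher (20 and 40; 2.11, 1.20 to 3.81), and DGKE had 34 and 22 (0.68, 0.38 to 1.20). Of 16 other diacylglycerol receptors and protein kinase C partners, 7 had a circRNA and 3 had 10 or more reads, none past 2-fold. The GTPase-activating protein CHN1 had 45 and 46 (1.08, 0.70 to 1.66) and UNC13B, which primes vesicles for release, 30 and 41 (1.44, 0.88 to 2.39). With 2 libraries no measure of likeness between patterns was computed. The list genes nearest in log2 ratio were PRKCE (-0.97), PRKCA (-1.31) and DGKH (-0.66) to PDE4B, PDE4B, DGKH and PRKCA to PRKCE, UNC13B (0.52), ADCY7 (0.48) and ADD1 (0.41) to PDE1C, and CHN1 (0.11), PRKCH (0.32) and, tied, DGKD and PRKAR2A (0.08 each) to PDE8A.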

How the data were processed

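The deposited table gave 1 column for each of the 2 libraries. The file header calls them TPM, but they were used as RPM: above the placeholder of 0.001, 100% of the deposited values were whole multiples of 1 step per library to within 0.001 reads, so they hold no length term. Division by the step gave reads; the placeholder was taken as not listed. Per the submitters' processing notes, CASAVA 1.8, BWA and build rn6 were used, with no role given. The circRNA caller is not given in the sources used here. Per the labels' protocols, the RNase R digest used 16 units at 37 °C and lasted 15 minutes. Ratios are shares of library reads with exact conditional binomial (Clopper-Pearson) 95% intervals, and shares have exact binomial intervals. The intervals cover counting error only, since there was 1 library per group. They take reads as independent, which PCR copies of a molecule are not, so they may be too narrow. Host sums used rows with 1 gene name. Calls were by size and are not tests. Rows on chromosome Y and of X inactivation genes were not used, though the library totals include them. All member junctions are accounted for; list genes are named where past 2-fold, with the 2 that have the most reads. Other genes named for comparison (PRKCI, PDE10A) and the measure of junction use were chosen after their values were seen. Members and lists were chosen with earlier results of these data known. Functions were checked on simulated data. Software was scipy 1.17.1, numpy 2.4.6, pandas 2.3.3 and matplotlib 3.10.9 under Python 3.11.15.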

Additional observations from a re-analysis of the deposited data

How the results depend on the processing

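No paired analysis was possible because there was 1 library per group. Other settings were median of ratios (a shift of -0.08 on the log2 scale) and TMM scaling (-0.01), 2 reads added, a 1.5-fold call, minimums of 5 and 20 reads, an interval that excludes 1, and other choices of rows. The number of member host genes called lower, 1, became 2 with median of ratios scaling, with a 1.5-fold call and with circBase junctions only, 3 with combined-host rows, and 0 without the leading junction of each gene, which removes PDE4B altogether. The number called higher, 0, became 1 at 1.5-fold. Member junctions called higher, 1, became 3 at 1.5-fold and 0 with a minimum of 20 reads or an interval that excludes 1. The PRKCE ratio, 0.50, was 0.47 with median of ratios scaling, 0.48 with combined-host rows and 0.18 with circBase junctions only, but lay above 1 without its leading junction (1.21) and with junctions listed in both libraries (1.05). The PDE8A ratio, 1.16, was 0.90 without its leading junction. With circBase junctions only, the leading PDE1C junction held 100% of the gene's control reads and 89.5% in the other library, since only 2 junctions are left. List genes called higher, 4, became 2 with a minimum of 20 reads, and the list median of 0.05 became -0.02 with median of ratios scaling. The list setting with combined-host rows was chosen after seeing the data and gave 4 higher and 4 lower. Over all host genes, 403 higher and 429 lower became 711 and 760 at 1.5-fold, 616 and 656 with a minimum of 5 reads, 211 and 215 with 20, 264 and 289 with junctions listed in both libraries, and 273 and 222 without leading junctions. Depth limits most junctions: 13 of 22 had under 10 reads.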
